A study of Mus musculus with 4 samples.

Results

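The genes described here build and load MHC class I molecules: the heavy chains H2-K1, H2-D1, H2-T22, H2-T23 and H2-M3, the light chain B2m, the peptide transporter genes Tap1 and Tap2, the tapasin gene Tapbp, and Nlrc5, which encodes the class I transactivator. They were chosen by symbol and role in the pathway, by a rule that uses no measured value, though earlier results of these data were known when it was written. All 10 were found among the 24497 gene rows of the table, and all 10 were among the 11452 genes tested, those that reached 1 TPM (a length-corrected transcript abundance with a fixed total per library) in 2 or more of the 4 libraries.

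RNA sequencing was done on mouse acute myeloid leukaemia cells in culture made from bone marrow haematopoietic stem cells with NRAS, a RAS family oncogene, and AE9a, a shortened product of the AML1-ETO fusion gene. The 2 WT libraries came from cells of wild-type origin, and the 2 Tet2 KO libraries from cells of Tet2-/- mice with exon 3 of Tet2 deleted. Tet2 encodes a dioxygenase that oxidises methylated cytosine in DNA. Both groups carried the oncogenes and were grown in the same medium, with puromycin (2 µg/ml), G418 (1 mg/ml), stem cell factor (50 ng/ml) and the interleukins IL-3 and IL-6 (10 ng/ml each), and had no further treatment. The labels give neither mouse strain nor animal age, and do not say whether replicates are separate cultures. The p-values therefore reflect only how far these libraries differ, possibly for technical reasons, and genotype cannot be told apart from any other difference between the established cell populations.

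MHC class I molecules show peptides from inside the cell to CD8 T cells. A heavy chain pairs with the light chain, beta-2-microglobulin, in the endoplasmic reticulum. There tapasin holds the empty molecule next to TAP, the transporter that brings in peptides cut by the proteasome. Classical chains are recognised mainly by T cells, while some nonclassical chains are read by NK cells or by unconventional T cells. The transactivator NLRC5 has no DNA-binding domain of its own. It acts at class I promoters through RFX, CREB/ATF and NF-Y factors, beside NF-kappa B and interferon regulatory factors that bind further upstream.

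The promoters of 5 members are shown, those of the most abundant chains and of members that rose. They carry some of these textbook elements, as do windows of members not shown. Any link of the elements with changes in RNA was not tested. Each window runs from 250 bases before the RefSeq start to 50 after it, on GRCm38.p6, the build also called mm10, 5′ to 3′ on the gene's strand. Capitals mark every match, on either strand, to 4 motifs: a kappa B site (GGGGA and TCCCC, 1 base apart), an interferon-response-like element (GAAA and GAAA, 2 bases apart), the CREB/ATF core TGACG and the NF-Y box CCAAT. The windows are chr17:34000298-34000597 on the minus strand for H2-K1, chr17:35262844-35263143 on the plus strand for H2-D1, chr17:36032652-36032951 on the minus strand for H2-T23, chr2:122147437-122147736 on the plus strand for B2m and chr17:34187306-34187605 on the plus strand for Tap1.
H2-K1: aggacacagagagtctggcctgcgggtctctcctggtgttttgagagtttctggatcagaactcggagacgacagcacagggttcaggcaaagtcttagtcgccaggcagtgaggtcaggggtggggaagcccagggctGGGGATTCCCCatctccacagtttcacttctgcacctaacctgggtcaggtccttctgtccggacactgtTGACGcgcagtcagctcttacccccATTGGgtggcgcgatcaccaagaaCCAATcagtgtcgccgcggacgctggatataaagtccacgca
H2-D1: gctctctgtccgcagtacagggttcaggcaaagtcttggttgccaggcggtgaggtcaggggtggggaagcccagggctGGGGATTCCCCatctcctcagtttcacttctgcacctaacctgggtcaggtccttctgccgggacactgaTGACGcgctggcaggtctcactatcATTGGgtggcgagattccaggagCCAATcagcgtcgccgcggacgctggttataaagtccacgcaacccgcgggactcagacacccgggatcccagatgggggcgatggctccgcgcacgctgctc
H2-T23: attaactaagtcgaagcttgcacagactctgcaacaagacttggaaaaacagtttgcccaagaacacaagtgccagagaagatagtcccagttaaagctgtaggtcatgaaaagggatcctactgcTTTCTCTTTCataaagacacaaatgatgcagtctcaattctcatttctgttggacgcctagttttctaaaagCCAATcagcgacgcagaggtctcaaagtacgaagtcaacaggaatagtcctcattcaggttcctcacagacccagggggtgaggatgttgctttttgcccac
B2m: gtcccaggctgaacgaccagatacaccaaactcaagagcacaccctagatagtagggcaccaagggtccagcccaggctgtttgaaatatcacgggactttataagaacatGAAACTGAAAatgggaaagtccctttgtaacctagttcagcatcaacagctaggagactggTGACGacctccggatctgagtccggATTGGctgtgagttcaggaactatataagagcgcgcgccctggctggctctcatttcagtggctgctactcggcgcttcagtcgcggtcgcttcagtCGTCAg
Tap1: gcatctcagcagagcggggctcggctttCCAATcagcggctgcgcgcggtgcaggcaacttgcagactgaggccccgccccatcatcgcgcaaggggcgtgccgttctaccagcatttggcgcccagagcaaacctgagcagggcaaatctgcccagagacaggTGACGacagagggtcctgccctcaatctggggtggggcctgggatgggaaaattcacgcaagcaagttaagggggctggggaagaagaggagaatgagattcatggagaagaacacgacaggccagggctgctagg

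The table of promoters held windows of 8 members. Tap2 and Nlrc5 had none. The kappa B letters stood in the windows of 2 members, H2-K1 and H2-D1, and in 0.0487% of all 32851 windows. The interferon-response-like letters stood in those of 3 members, H2-T22, H2-T23 and B2m, against 3.44% of all windows. The CREB/ATF core was present in 6 members (20.8% of all windows) and the NF-Y box in 8 of 8 (37.4%). In H2-D1 the kappa B site began 171 bases before the start, followed by the CREB/ATF core and, 76 bases before the start, by the first NF-Y box. H2-K1 held the same elements in the same order, the kappa B site 111, the CREB/ATF core 41 and the NF-Y box 16 bases before the first of its 2 annotated starts. In B2m the interferon-response-like match began 139 bases, the CREB/ATF core 78 bases and the NF-Y box 53 bases before the start. The letters were chosen as textbook elements of class I promoters, so their presence in these windows is no test of enrichment. Members were counted by gene and the background by window. These are exact matches of letters, not measured binding. Variant forms of the elements were not counted, so a window without a match may still hold such an element.

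Of the members, 8 lie on chromosome 17 within 3.36 Mb, between 33915899 and 37274484 (GENCODE M21, mm10), in the order Tapbp, H2-K1, Tap1, Tap2, H2-D1, H2-T23, H2-T22 and H2-M3. B2m lies on chromosome 2 (122147686 to 122153083) and Nlrc5 on chromosome 8 (94434356 to 94527272). Heavy chains are polymorphic between strains and have close copies. The strain is not given, so how well these cells' alleles match mm10 was not tested, and reads of a shared stretch may have been divided between copies. Of the 75-base stretches in annotated H2-T22 transcripts, 18.5% also occurred in another gene, most of them in H2-T10. The shares were 5.91% for H2-T23, 5.4% for H2-D1, 3.1% for H2-K1 and 1.1% for Tapbp, and 0 for H2-M3, B2m, Tap1, Tap2 and Nlrc5. The values of the heavy chains with shared stretches, H2-T22, H2-T23, H2-D1 and H2-K1, are therefore uncertain, that of H2-T22 over the widest stretch. The H2-L and H2-T9 rows have no transcript of that name in GENCODE M21 and were not checked in this way.

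The table gives TPM, from which the number of reads cannot be had, and depth is therefore unknown. Spike-in RNAs took 4.38 and 4.43% of the total in WT and 5.48 and 5.33% in Tet2 KO, and 14753 to 15139 genes were above 0 in a library. Tet2 itself stood at 16.62 and 16.98 TPM in the WT libraries against 16.98 and 16.95 TPM in the Tet2 KO libraries, a gene-level value that does not check the deletion of 1 exon. All 10 markers of myeloid blasts were tested, and 5 were higher and 5 lower in Tet2 KO on the deposited scale, against 54.4% and 19.5% of all tested genes. Of the 5 higher, Cd34 turned lower and Ptprc was not called once libraries were scaled to the median ratio of all genes or to the spike-ins. Their summed level was 3725 to 3752 TPM in WT and 2883 to 2902 TPM in Tet2 KO, a sum that abundant genes dominate. The abundant Ly6c2 (means of 1207 and 663 TPM) and Fcgr3 (879 and 649 TPM) were among the 5 that fell. So was Csf1r (100 and 41.4 TPM), the most changed of the 10. Mpo (means of 91.8 and 157 TPM) and Cd33 (196 and 279 TPM) were among the 5 that rose. Markers of B cells (5, Pax5 at 0) and of T and NK cells (7, with Cd3e, Cd3g and Ncr1 at 0) summed to at most 0.82 and 0.33 TPM in any library, and erythroid markers (5, Hbb-bs at 0) to at most 1.6 TPM. The 6 dendritic cell markers summed to 86.5 to 86.6 TPM in WT and 9.81 to 11.6 TPM in Tet2 KO. Of them only Itgax reached 1 TPM, and Cd209a was at 0. The 7 stromal and endothelial markers summed to 4.73 to 4.76 and 17.2 to 18.2 TPM, with only Pdgfrb above 1 TPM and none at 0 in all libraries. These marker levels moved with genotype, and their part in the results below was not tested. In bulk RNA, fewer cells of a type and less RNA per cell cannot be told apart.

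Tet2 KO cells had more RNA of the transactivator Nlrc5, of both transporter genes and of H2-T23, and less of the light chain B2m. The 2 classical heavy chains, H2-K1 and H2-D1, lay 8.57% and 8.32% higher in mean TPM, and were lower once libraries were scaled to the median ratio of all genes. After quantile normalization, another way to scale libraries, both were higher. On the deposited scale, 7 of the 10 members were higher in Tet2 KO and 1 was lower at an adjusted p under 0.05 (limma on log2(TPM + 1), Benjamini-Hochberg over all tested genes). Of all tested genes, 73.9% were called by the same rule, 54.4% higher and 19.5% lower. Without either WT library, 4 members were higher. Both Tet2 KO libraries lay above both WT libraries for 8 members and below them for 1, where 62.4% and 24.4% of all tested genes did so. The median log2 fold change was 0.15 over the members and 0.23 over all tested genes, so most genes were shifted upward on this scale. After median-ratio scaling, which brings the median of all genes near 0, 4 members were higher and 5 lower, against 33.3% and 34.4% of all tested genes (67.7% called). After scaling to the spike-ins, 4 were again higher and 5 lower, against 29.6% and 37.8% (67.4% called). The members' shares were not far from these backgrounds, and the members moved in different directions.

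**Figure D1:**
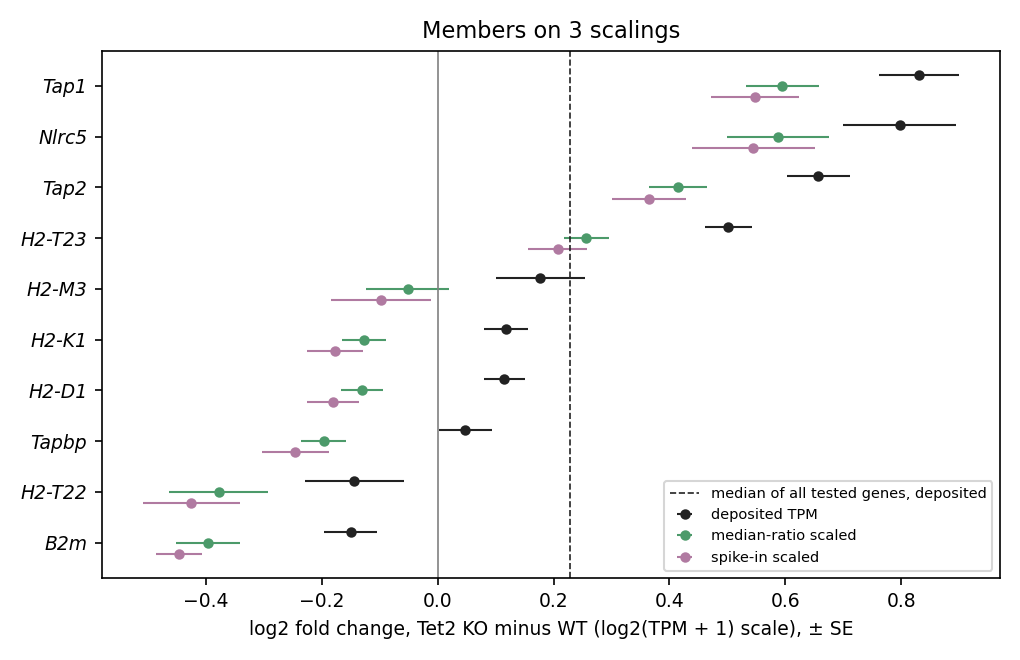
Log2 fold change of each member (Tet2 KO minus WT, log2(TPM + 1) scale, horizontal axis) with its SE, on deposited TPM (black), after median-ratio scaling (green) and after scaling to the spike-ins (purple), with the median of all tested genes on deposited TPM as a dashed line. Tap1, Nlrc5, Tap2 and H2-T23 lie to the right of 0 on all 3 scales, B2m and H2-T22 to the left, and H2-K1, H2-D1, H2-M3 and Tapbp change sides.

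Nlrc5, the transactivator, was the least abundant member. It stood at 4.13 and 4.48 TPM in the WT libraries against 7.78 and 8.67 TPM in the Tet2 KO libraries. The groups did not overlap, and the means were 4.31 ± 0.247 and 8.23 ± 0.629 TPM (SD, n = 2 each), 1.91-fold apart. Nlrc5 rose by 0.80 on the log2 scale (SE 0.0973, limma adjusted p = 1.66e-06), 0.59 after median-ratio scaling (limma adjusted p = 3.72e-04) and 0.54 after spike-in scaling (limma adjusted p = 5.55e-06). The 3 tested genes with the nearest profile over the 4 libraries were Eid3, Rab17 and Klhl11, at a Euclidean distance of 0.0215 to 0.0283 on the centred log2(TPM + 1) scale. They stand as a description of 4 libraries.

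Tap1 and Tap2 encode the subunits of the peptide transporter, which works as a heterodimer. Tap1 (chromosome 17, 34187553 to 34197225) was at 16.34 and 18.32 TPM in the WT libraries against 30.80 and 32.32 TPM in the Tet2 KO libraries. It rose 1.82-fold in mean TPM, with a log2 fold change of 0.83 (SE 0.0692, limma adjusted p = 1.78e-08) and of 0.59 after median-ratio scaling. Tap2 (34203527 to 34216321) was more abundant, at 59.58 and 57.38 TPM in the WT libraries against 89.12 and 96.61 TPM in the Tet2 KO libraries. It rose 1.59-fold, with a log2 fold change of 0.66 (SE 0.0548, limma adjusted p = 1.82e-08) and of 0.41 after median-ratio scaling. For both genes the Tet2 KO libraries lay above the WT libraries with a wide gap. Tap2 RNA exceeded Tap1 RNA in every library, 3.65 and 3.13 times in WT and 2.89 and 2.99 times in Tet2 KO.

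Tapbp encodes tapasin, which tethers class I molecules to the transporter. It was at 119.15 and 119.17 TPM in the WT libraries against 121.28 and 125.10 TPM in the Tet2 KO libraries. The groups did not overlap, but the difference did not pass the test (log2 fold change 0.047, SE 0.0457, limma adjusted p = 0.358). Median-ratio scaling made Tapbp lower (-0.20, limma adjusted p = 0.00187, range over alternatives 1.22e-04 to 0.616). Tapbp RNA was 2.00 and 2.08 times that of Tap2 in WT and 1.36 and 1.29 times in Tet2 KO.

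B2m, the light chain shared by the heavy chains above, was the most abundant member in each library. It stood at 2017.60 and 2082.86 TPM in the WT libraries against 1940.56 and 1757.07 TPM in the Tet2 KO libraries. Both Tet2 KO libraries were below both WT libraries, and they differed more from each other than the WT libraries did. The means were 2050.2 ± 46.1 and 1849 ± 130 TPM, and B2m fell by 0.15 on the log2 scale (SE 0.0451, limma adjusted p = 0.0135). It fell by 0.40 after median-ratio scaling (limma adjusted p = 3.40e-04) and by 0.45 after spike-in scaling (limma adjusted p = 2.67e-17). Without the intensity trend in limma the call on the deposited scale was lost (limma adjusted p = 0.0948, range over alternatives 2.67e-17 to 0.0948). The difference was -0.079 without Tet2 KO replicate 2, which held the lowest value, and -0.22 without Tet2 KO replicate 1, and was called in both cases.

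H2-K1 and H2-D1 are the classical heavy chains, which present peptides to CD8 T cells. H2-K1 (chromosome 17, 33996017 to 34000347) was at 461.10 and 455.13 TPM in the WT libraries against 483.16 and 511.57 TPM in the Tet2 KO libraries. H2-D1 (35262730 to 35267499) was at 678.95 and 678.09 TPM in the WT libraries against 718.19 and 751.81 TPM in the Tet2 KO libraries. The groups did not overlap for either chain, and the gaps were small. The log2 fold changes were 0.12 for H2-K1 (SE 0.0385, limma adjusted p = 0.0116) and 0.11 for H2-D1 (SE 0.0356, limma adjusted p = 0.00843). Both turned to -0.13 after median-ratio scaling (limma adjusted p = 0.0157 and 0.0106) and to -0.18 after spike-in scaling. After quantile normalization both were higher, by 0.24 and 0.33 (limma adjusted p = 2.76e-04 and 1.72e-05). Their direction thus depended on the scaling. Leaving out either WT library ended both calls (limma adjusted p = 0.0584 and 0.104 for H2-K1, range over alternatives 2.76e-04 to 0.118, and 0.0635 and 0.0661 for H2-D1, range over alternatives 1.72e-05 to 0.116). Without Tet2 KO replicate 2 the call on H2-K1 was lost as well (0.077, limma adjusted p = 0.0703). The ratio of H2-D1 to H2-K1 RNA was 1.47 and 1.49 in WT and 1.49 and 1.47 in Tet2 KO, so the groups overlapped.

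The 3 nonclassical chains moved differently from one another. H2-T23 encodes the heavy chain of Qa-1, which presents leader peptides of other class I chains to receptors of NK cells and some T cells. It was at 206.77 and 200.69 TPM in the WT libraries against 287.78 and 289.87 TPM in the Tet2 KO libraries, 1.42-fold higher in mean TPM with a wide gap between the groups. H2-T23 rose by 0.50 on the log2 scale (SE 0.0402, limma adjusted p = 1.14e-08), 0.26 after median-ratio scaling (limma adjusted p = 4.14e-04) and 0.21 after spike-in scaling. H2-T22, a chain recognised by some gamma delta T cells, was at 21.21 and 19.48 TPM in the WT libraries against 16.69 and 20.06 TPM in the Tet2 KO libraries. These groups overlapped, since Tet2 KO replicate 2 lay between the WT libraries, and the difference did not pass the test (-0.14, SE 0.0848, limma adjusted p = 0.141). Median-ratio scaling made H2-T22 lower (-0.38, limma adjusted p = 0.00442, range over alternatives 2.11e-05 to 0.835). Without Tet2 KO replicate 2 it was lower on the deposited scale too (-0.27, limma adjusted p = 0.00827). H2-M3, which presents formylated peptides, was at 12.11 and 12.66 TPM in the WT libraries against 14.70 and 13.58 TPM in the Tet2 KO libraries. It passed the test narrowly (0.18, SE 0.0771, limma adjusted p = 0.0482), and turned to -0.052 after median-ratio scaling (limma adjusted p = 0.545, range over alternatives 0.0243 to 0.545). The call on H2-M3 was lost without WT replicate 1, WT replicate 2 or Tet2 KO replicate 1 (limma adjusted p = 0.241, 0.0975 and 0.193) and with the replicate number as a block (limma adjusted p = 0.065).

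**Figure D2:**
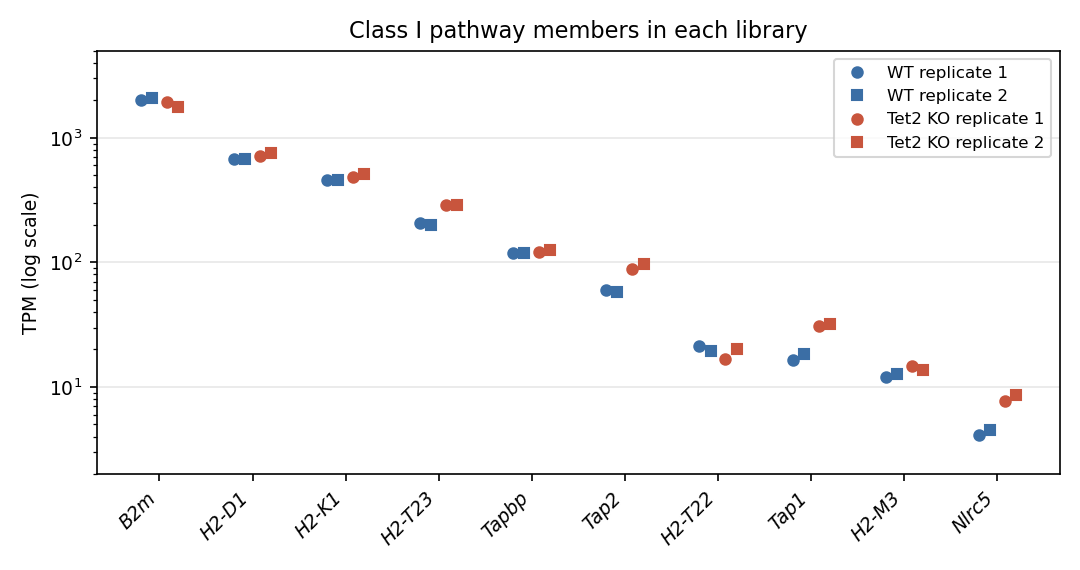
TPM on a log scale (vertical axis) of the 10 members in each of the 4 libraries, WT in blue and Tet2 KO in red, circles for replicate 1 and squares for replicate 2, ordered by the WT mean. The levels run from Nlrc5, at 4.13 to 8.67 TPM, to B2m, at 1757.07 to 2082.86 TPM.

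TPM are scaled to transcript length, so levels can be set side by side between genes. In WT the order of mean TPM was B2m, H2-D1, H2-K1, H2-T23, Tapbp, Tap2, H2-T22, Tap1, H2-M3 and Nlrc5. In Tet2 KO it was the same except that Tap1 stood above H2-T22. The libraries of neighbours in each order did not overlap. The closest were H2-T22 and Tap1 in WT, where the lower H2-T22 library (19.48 TPM) lay just above the higher Tap1 library (18.32 TPM), and H2-T22 and H2-M3 in Tet2 KO (16.69 and 14.70 TPM).

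Ratios within a library do not depend on how libraries are scaled against each other. The 5 member heavy chains summed to 1380 and 1366 TPM in WT and to 1521 and 1587 TPM in Tet2 KO. The ratio of B2m to these 5 summed chains was 1.46 and 1.52 in WT and 1.28 and 1.11 in Tet2 KO. Its mean fell by 20.2%. Over all 23 heavy chain rows, a sum outside the 9 ratios below, it was 1.39 and 1.44 in WT and 1.20 and 1.04 in Tet2 KO. H2-T23 made up 15.0 and 14.7% of the heavy chain sum in WT and 18.9 and 18.3% in Tet2 KO. H2-K1 and H2-D1 together made up 82.6 and 83.0% in WT and 79.0 and 79.6% in Tet2 KO. The largest of the 9 ratios' shifts was that of B2m to Tap1, from 123 and 114 in WT to 63.0 and 54.4 in Tet2 KO. Of the 9 ratios, 8 were apart between the groups, all but H2-D1 to H2-K1. With 2 libraries against 2, the two-sided exact permutation test cannot go below p = 0.333, the value of these 8 (0.375 after Benjamini-Hochberg adjustment over the 9), so the ratios are given as a description.

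**Figure D3:**
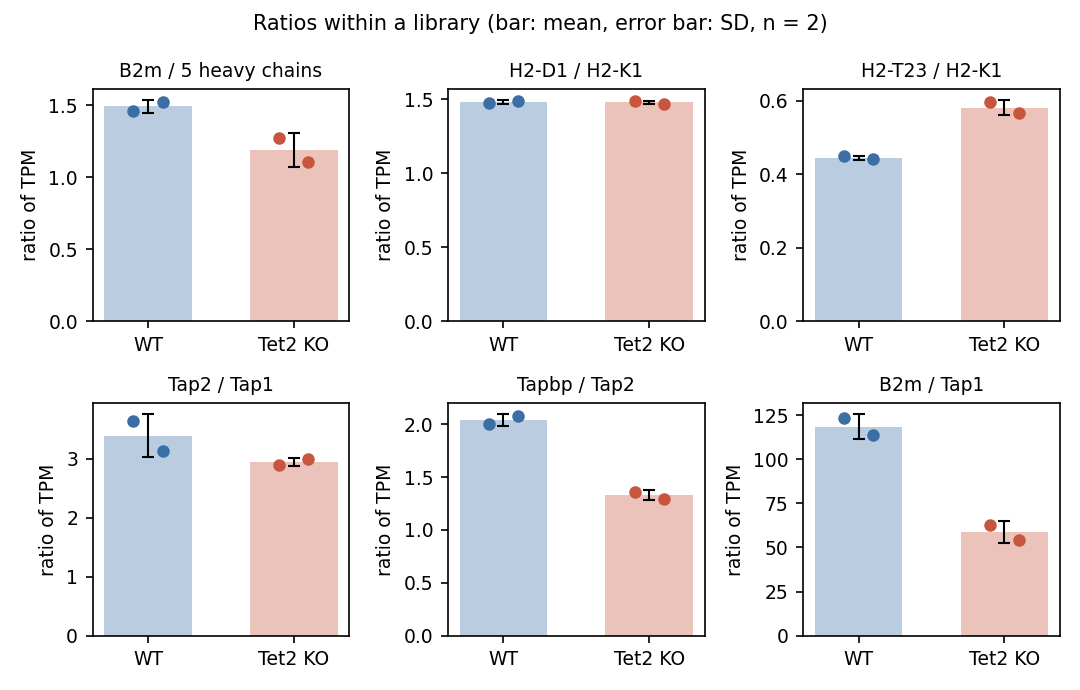
Ratios of TPM between members within a library (vertical axes, each from 0), WT in blue and Tet2 KO in red, with points for libraries, bars for means and error bars for the SD (n = 2). B2m over the 5 summed member heavy chains falls from 1.46 and 1.52 to 1.28 and 1.11. H2-T23 to H2-K1 rises, while the H2-D1 to H2-K1 ratio lies between 1.47 and 1.49 in all 4 libraries.

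The other genes of the pathway were grouped by role. Of their 68 tested genes, 37 were higher and 13 lower in Tet2 KO, shares near the 54.4% and 19.5% of all tested genes. After median-ratio scaling 16 were higher and 27 lower, where 33.3% and 34.4% of all tested genes were. These backgrounds hold for each list below. Their median log2 fold change was 0.21 on the deposited scale, against 0.23 over all tested genes. Among other class I and class I-like chains, 10 of 24 were tested, with 4 higher and 2 lower, or 2 and 4 after median-ratio scaling. H2-Q4 rose from 8.36 and 10.31 to 20.61 and 24.46 TPM (1.19 on the log2 scale, limma adjusted p = 3.65e-06). H2-T24 rose from 12.99 and 12.95 to 24.33 and 26.07 TPM (0.91, limma adjusted p = 5.94e-09), and H2-K2 from 4.0 and 4.78 to 6.62 and 6.07 TPM (0.45, limma adjusted p = 0.00104). H2-K2 is annotated as a transcribed pseudogene in GENCODE M21 and is counted among the 4 higher. The call on H2-K2 was lost after median-ratio scaling (limma adjusted p = 0.0603, range over alternatives 3.73e-04 to 0.155). Hfe, which encodes a class I-like regulator of iron uptake, fell from 8.78 and 8.75 to 5.70 and 4.73 TPM (-0.66, limma adjusted p = 1.58e-05). H2-Q4 and H2-K2 share 7.02% and 4.99% of their 75-base stretches with other genes, so their values are uncertain in the same way.

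Of 11 loading and folding partners, 4 were higher and 4 lower. After median-ratio scaling 0 were higher in limma (0 also at an unadjusted p under 0.05) and 8 were lower, with a median of -0.21. After spike-in scaling 0 were higher (0 also at an unadjusted p under 0.05) and 10 were lower, against 29.6% and 37.8% of all tested genes. Without either WT library 2 were higher on the deposited scale. Pdia3, the disulphide isomerase bound to tapasin in the loading complex, fell from 498.49 and 516.26 to 393.84 and 390.43 TPM (-0.37, limma adjusted p = 1.58e-07). Bcap31, a cargo receptor gene of the endoplasmic reticulum, fell from 173.52 and 170.28 to 134.66 and 128.40 TPM (-0.38, limma adjusted p = 1.07e-06). Tapt1, listed here although its role in class I loading is unsure and counted among the 4 lower, fell by 0.27. Canx, which encodes the chaperone calnexin that folds free heavy chains, rose from 257.48 and 267.72 to 322.18 and 308.55 TPM (0.26, limma adjusted p = 2.49e-05), and was not called after median-ratio scaling (0.018) or relative to the spike-ins (-0.032).

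Of 14 peptide supply genes, 7 were higher and 4 lower (54.4% and 19.5% of all tested genes), or 3 and 6 after median-ratio scaling (33.3% and 34.4%). The aminopeptidase gene Lnpep rose 2.34-fold, from 30.74 and 33.21 to 73.99 and 75.56 TPM (1.20, limma adjusted p = 1.94e-11). Erap1, the aminopeptidase gene of the endoplasmic reticulum that trims peptides after transport, rose from 27.26 and 28.87 to 41.09 and 42.41 TPM (0.56, limma adjusted p = 3.57e-07). Tpp2, a cytosolic peptidase gene, rose by 0.41 on the log2 scale and by 0.17 after median-ratio scaling, and was not called after spike-in scaling (0.12, limma adjusted p = 0.0881, range over alternatives 3.58e-07 to 0.0881). Thop1, which encodes a cytosolic oligopeptidase that breaks down many class I peptides, fell from 21.91 and 21.79 to 13.23 and 14.25 TPM (-0.63, limma adjusted p = 5.26e-07). Psmb9, an immunoproteasome gene, was picked after its values had been seen because it is divergent to Tap1: 275 of the 300 bases of their promoter windows are the same stretch, read on opposite strands. Psmb9 was at 25.22 and 23.59 TPM in the WT libraries against 25.55 and 26.56 TPM in the Tet2 KO libraries, and did not pass the test (0.091, SE 0.064, limma adjusted p = 0.207). It was not called after median-ratio scaling (-0.15, limma adjusted p = 0.0534) and was lower after spike-in scaling (-0.19, limma adjusted p = 0.0178). Tap1 RNA was 0.648 and 0.777 times that of Psmb9 in WT and 1.21 and 1.22 times in Tet2 KO, so the groups were apart.

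Of 11 tested transactivator partners, 9 were higher and 1 lower (54.4% and 19.5% of all tested genes), or 5 and 1 after median-ratio scaling (33.3% and 34.4%). After spike-in scaling 4 were higher and 2 lower (29.6% and 37.8%), and the 4 higher held no RFX or NF-Y gene. Of the RFX and NF-Y genes, only Nfyb was called higher after median-ratio scaling (0.21, limma adjusted p = 0.0147). The NF-kappa B genes Nfkb1 and Rela rose by 0.55 and 0.52 on the log2 scale (limma adjusted p = 2.42e-07 and 3.68e-07), Nfkb1 from 66.16 and 65.52 to 91.81 and 102.53 TPM. Atf1, of the CREB/ATF family, rose from 53.35 and 54.79 to 81.83 and 74.66 TPM (0.52, limma adjusted p = 4.11e-07). Kpna2, an importin alpha gene of nuclear import, fell from 236.22 and 244.94 to 153.58 and 154.83 TPM (-0.64, limma adjusted p = 1.10e-09). Of the 12 genes on the interferon gamma route, 7 were higher and 2 lower, or 4 and 5 after median-ratio scaling, against the same shares of all tested genes. Jak2 rose from 61.63 and 63.05 to 102.15 and 98.67 TPM (0.68, limma adjusted p = 4.34e-09) and its partner kinase gene Jak1 by 0.43. The transcription factor genes Irf1 and Irf9 rose by 0.53 and 0.49, Irf1 from 7.30 and 6.79 to 11.04 and 10.23 TPM (limma adjusted p = 4.04e-05).

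Of 10 class I turnover genes, 6 were higher and 0 lower in limma on the deposited scale (0 lower also at an unadjusted p under 0.05, 1 lower without Tet2 KO replicate 1). After median-ratio scaling 2 were higher and 3 lower. All tested genes had 54.4% higher and 19.5% lower, and 33.3% and 34.4% after that scaling. Derl1, which encodes a channel component for export of misfolded chains from the endoplasmic reticulum, rose from 81.77 and 81.92 to 126.89 and 130.61 TPM (0.65, limma adjusted p = 3.52e-09). Susd6, Tmem127 and Wwp2 encode a complex that sends surface class I molecules to lysosomes. Susd6 rose from 36.38 and 36.70 to 53.64 and 56.18 TPM (0.57, limma adjusted p = 1.20e-07), on all 3 scales. Wwp2 and Tmem127 rose by 0.35 and 0.28 on the deposited scale and were not called after median-ratio scaling (0.11 and 0.045).

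**Figure D4:**
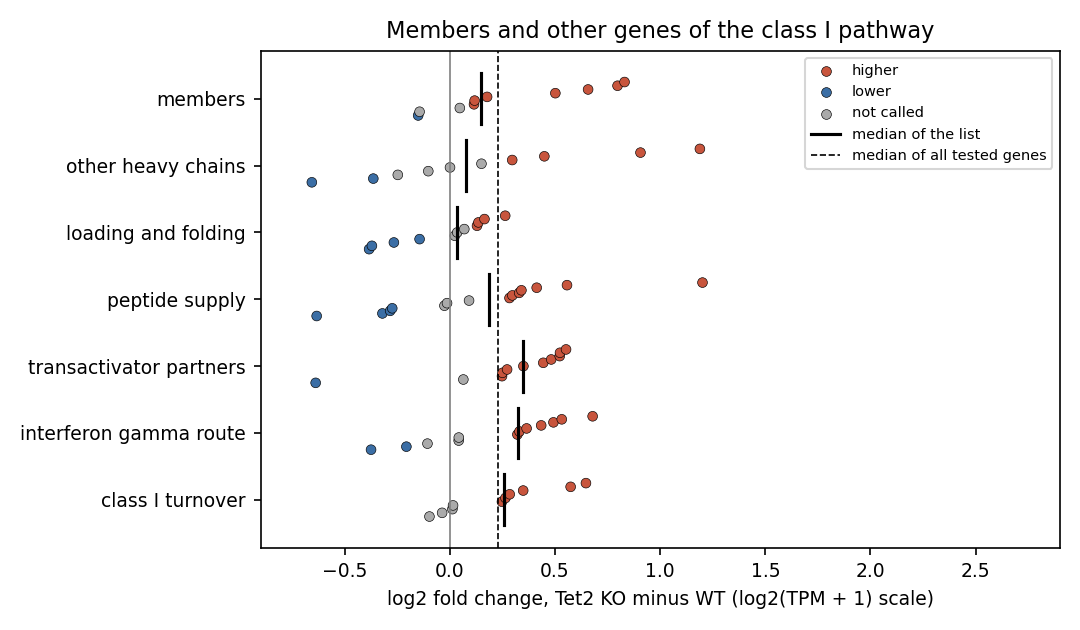
Log2 fold change (Tet2 KO minus WT, log2(TPM + 1) scale, horizontal axis) of each tested gene in the members and in 6 other lists of the class I pathway, red where called higher, blue where called lower and grey where not called, with the median of each list as a black bar and the median of all tested genes as a dashed line. The medians run from 0.04 for loading and folding partners to 0.35 for transactivator partners, around the 0.23 of all tested genes, and every list but class I turnover holds genes called in both directions.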

How the data were processed

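The 2 WT libraries were compared with the 2 Tet2 KO libraries. The labels' protocols name QIAzol for RNA extraction and a stranded mRNA kit. STAR, RSEM and mm10 are named, without versions, in the submitters' processing notes; for annotation and filters the sources used here give nothing. TPM were deposited by the authors in 1 table of 24589 rows, with 2 decimals and no depth.

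After removal of 92 spike-in rows, limma 3.58.1 (R 4.3.3, statmod 1.5.0) was fitted to log2(TPM + 1) with trend and robust variance, for the 11452 genes reaching 1 TPM in 2 libraries or more. P-values were two-sided, with Benjamini-Hochberg adjustment and a threshold of 0.05. The fit was tested on simulated data with few changed genes, in both directions, and no shift of most genes. That setting is unlike these data, so the simulation does not measure false calls here. Log2 differences understate the change of low genes, and folds without log2 are ratios of mean TPM. The members and lists were chosen with earlier results of these data known. Named genes are the members, up to 4 called genes per list (at least 5 TPM, largest changes) and the 3 profiles nearest to Nlrc5. Psmb9, Nfyb and the marker genes named stand outside this rule. Alternatives were pseudocounts of 0.1 and 5, no filter or 5 TPM, median-ratio, quantile and spike-in scaling, limma without trend or robust variance, a replicate block and leaving out each library. Promoters came from RefSeq (GRCm38.p6), positions and transcripts from GENCODE M21, and plots from matplotlib 3.10.9 (Python 3.11.15).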

Additional observations from a re-analysis of the deposited data

How the results depend on the processing

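The calls on H2-T23, Tap1, Tap2 and Nlrc5 were the same in all 14 alternatives run, and 112 of the 140 member results under alternatives kept direction and call. The 7 members higher became 4 after median-ratio scaling and 4 after spike-in scaling, and 4 to 6 were higher when each library was left out. The 1 member lower became 5 after median-ratio scaling, 5 after spike-in scaling, 2 after quantile normalization, 0 without trend (0 also at an unadjusted p under 0.05, B2m -0.15), and 1 to 2 when each library was left out. After quantile normalization 6 members were higher, among them H2-K1 (0.24) and H2-D1 (0.33). For the other pathway genes, 37 higher and 13 lower became 16 and 27 after median-ratio scaling, 23 and 27 after quantile normalization and 14 and 32 after spike-in scaling. Median-ratio and quantile scaling centre the genes by construction, with medians of 0.0023 and 0.0074 over all tested genes. Spike-in scaling follows the measured spike-in share, and its median was -0.044.

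Directions turned after median-ratio scaling for H2-K1 (-0.13), H2-D1 (-0.13), H2-M3 (-0.052) and Tapbp (-0.20), after spike-in scaling for the same genes (-0.18, -0.18, -0.10 and -0.25) and for Canx (-0.032) and Tmem127 (-0.0033), and after quantile normalization for H2-M3 (-0.10) and Tapbp (-0.055). H2-T22 became called after median-ratio (-0.38), quantile (-0.40) and spike-in scaling (-0.43). Calls were lost without trend for H2-K1 (0.12) and H2-D1 (0.11), and for H2-M3 with no filter (0.18), without robust estimation (0.18) and with the replicate block (0.18). When each library was left out, the values ran from 0.077 to 0.16 for H2-K1, 0.082 to 0.15 for H2-D1, -0.27 to -0.018 for H2-T22 and 0.12 to 0.23 for H2-M3. The cause was not tested.

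With all heavy chain rows summed, the Tet2 KO to WT ratio of the share of H2-K1 and H2-D1 was 0.95 in place of 0.958. Deviations of same-numbered libraries had a correlation of -0.0561 across 11452 genes, so these libraries showed little shared deviation across genes. Whether same-numbered libraries were handled together cannot be settled by this correlation. With the replicate block 6 members were higher and 1 lower, and 37 and 14 pathway genes. Depth is unknown, so what it limits could not be measured.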
